A study of Pseudotsuga menziesii with 66 samples.

Results

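Of the transcripts counted in needles from 5 young trees of Douglas-fir (Pseudotsuga menziesii), 200 of 199471 in the deposited table were taken as those that stood highest in autumn 2010 relative to the rest of the year. They were chosen by their own levels. The mean of the 16 collection-date means had to lie between 10 and 1000 CPM (the count divided by the library total, on the scale usual in sequencing), and the highest date mean had to be at least 4 times the lowest, which was floored at 0.1 CPM. The highest date had to be 27 Oct or 9 Nov 2010, and every library of that date had to exceed the mean of the 16 dates. These steps left 11682, 4708, 510 and 378 transcripts in turn, and the 200 with the largest ratio of the highest date mean to the mean of the other dates were kept. Of these, 128 were highest on 27 Oct and 72 on 9 Nov 2010.

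The trees, CCTO43, CCTO44, CCTO46, CCTO89 and CCTO90, were 2 years old when they were planted in November 2009 in a common garden at 390 m near Central Point, Oregon. All came from low-elevation Siskiyou seed: CCTO43, CCTO46 and CCTO89 from a lower locality, and CCTO44 and CCTO90 from a higher one. No treatment was given, and the groups compared were the dates. Needles of the set formed in 2010 were taken around noon on 16 dates from 27 Oct 2010 to 26 Oct 2011, 8 to 12 needles pooled per library. Each library of a date was a separate tree, with 5 trees on each date to 10 Mar 2011 except 4 on 23 Feb, 4 from April to August, 2 on 7 Sep, and 3 (CCTO43, CCTO44 and CCTO90) on 7 and 26 Oct 2011. The libraries of a date also shared its weather, and only 1 year was followed, so season, needle age and the particular year cannot be told apart.

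Evergreen conifers cannot shed their leaves for winter and instead harden them. Shortening days and then cold nights of autumn start the process: shoot growth has ended by then, cells build up soluble sugars and protective proteins such as dehydrins, membrane lipids are remodelled, and the photosynthetic apparatus turns toward the dissipation of light that cold needles cannot use. In late winter and spring the needles lose this hardiness and photosynthesis recovers. The files do not pair the identifiers with gene names, so which of the 200 transcripts belong to these processes is not known here, and needle identity could not be checked against marker genes. In such bulk samples a lower share of a transcript can mean fewer cells of a type or less RNA per cell, which cannot be told apart.

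The smallest library, CCTO46 on 9 Nov 2010, held 9924771 counts and the largest 37373284. All 200 transcripts passed the filter on low counts with which 60931 transcripts were tested, a filter they could hardly fail given how they were chosen. The CCTO43 library of 26 Oct 2011 had 48.3% of its counts in its 20 most abundant transcripts, against a median of 13.7% over libraries. The next highest was CCTO44 on 7 Sep 2011, 1 of 2 libraries of that date, with 38.0%, and then CCTO44 on 17 Jun with 29.9%. On 17 Aug 2011 the libraries labelled CCTO44 and CCTO46 resembled the other libraries of each other's tree more than those of their own.

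The ratio of the peak date to the other dates ran from 2.15 to 10.0 with a median of 2.73. It was at least 3 in 69 transcripts, at least 4 in 19 and at least 5 in 6. Peak date means ran from 20.8 to 1750 CPM with a median of 68.6, and 14 reached 500 CPM. The limit of 200 does not mark a gap: psme_t014807 and psme_t000418, the last ones inside, had ratios of 2.16 and 2.15, and psme_t000088 and psme_t008702, the first ones outside, both had 2.15. The level by date chose these transcripts, so the levels that follow are a description without a test.

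The steepest of them, psme_t033498, stood on 27 Oct 2010 at 246 CPM in CCTO43, 357 in CCTO44, 478 in CCTO46, 659.8 in CCTO89 and 715 in CCTO90. On 30 Nov it stood between 15.4 CPM in CCTO90 and 110.7 in CCTO43, and on 28 Jul 2011 its 4 libraries together held 63 counts, a mean of 0.686 CPM. No library of 30 Nov reached the lowest library of 27 Oct. A year later it came back only in part: on 7 Oct 2011 the 3 trees were close together at 60.5, 58.1 and 63.6 CPM (CCTO43, CCTO44 and CCTO90), 12.4% of the 5-tree peak mean.

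The next 2, psme_t022852 and psme_t027360, were highest on 9 Nov 2010 and followed one course. psme_t022852 stood that day between 233.5 CPM in CCTO43 and 607 in CCTO46, on 6 Jan 2011 between 19.6 and 44.6 CPM, and on 28 Jul between 0.379 and 0.935 CPM. After date means were removed, their log2 levels correlated by 0.93 over the 66 libraries, and the ratio of the first to the second had a median of 0.827 in the 57 libraries with at least 20 counts of both. The labels do not state how reads of near-identical transcripts were assigned, and such pairs may share reads and are uncertain as separate transcripts. Another 2, psme_t073417 and psme_t070023, moved together in the same way, with a ratio of 0.503 (range 0.353 to 0.844 in 46 libraries). On the peak date they were close between trees: psme_t070023 stood on 27 Oct 2010 at 365.5 CPM in CCTO43, 396 in CCTO44, 414 in CCTO46, 320.1 in CCTO89 and 385 in CCTO90, and on 28 Jul 2011 its 4 libraries held 11 counts in all. On 7 Feb 2011 the trees lay further apart, from 46.6 CPM in CCTO90 to 169.9 in CCTO89.

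Other steep transcripts differed widely between trees on their peak date. psme_t022271 reached 210.3 CPM in CCTO90 on 27 Oct 2010 and between 17.4 and 39.4 CPM in the other 4 trees. psme_t026350 stood between 37.8 CPM in CCTO89 and 304 in CCTO90 on that day. psme_t044705 ran the other way, with 92.2 CPM in CCTO43 and 15.1 in CCTO90 on 9 Nov. psme_t021008 was also highest on 9 Nov, between 67.5 CPM in CCTO44 and 577.5 in CCTO89, and psme_t026875 peaked on 27 Oct between 28.7 CPM in CCTO44 and 70.1 in CCTO90.

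The most abundant of the 200 were less steep. psme_t022398 peaked at 1750 ± 542 CPM (SD, n = 5) on 27 Oct 2010, stood at 1737 ± 769 on 7 Feb 2011 and at 505 ± 57.4 (n = 4) on 23 Feb. psme_t000363 had 2719 CPM in CCTO90 on 27 Oct and 1041 to 1504 CPM in the other trees. psme_t016911 peaked at 1412 ± 298 CPM (n = 5) on 27 Oct and psme_t010342 at 963 ± 514 (n = 5) on 9 Nov. psme_t010342 had the same highest and lowest tree on 9 Nov and 6 Jan: CCTO89 had 1821 CPM and CCTO43 468 on 9 Nov, and they had 1389 and 410.1 on 6 Jan, when the mean was 882 ± 352 (n = 5).

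**Figure D1:**
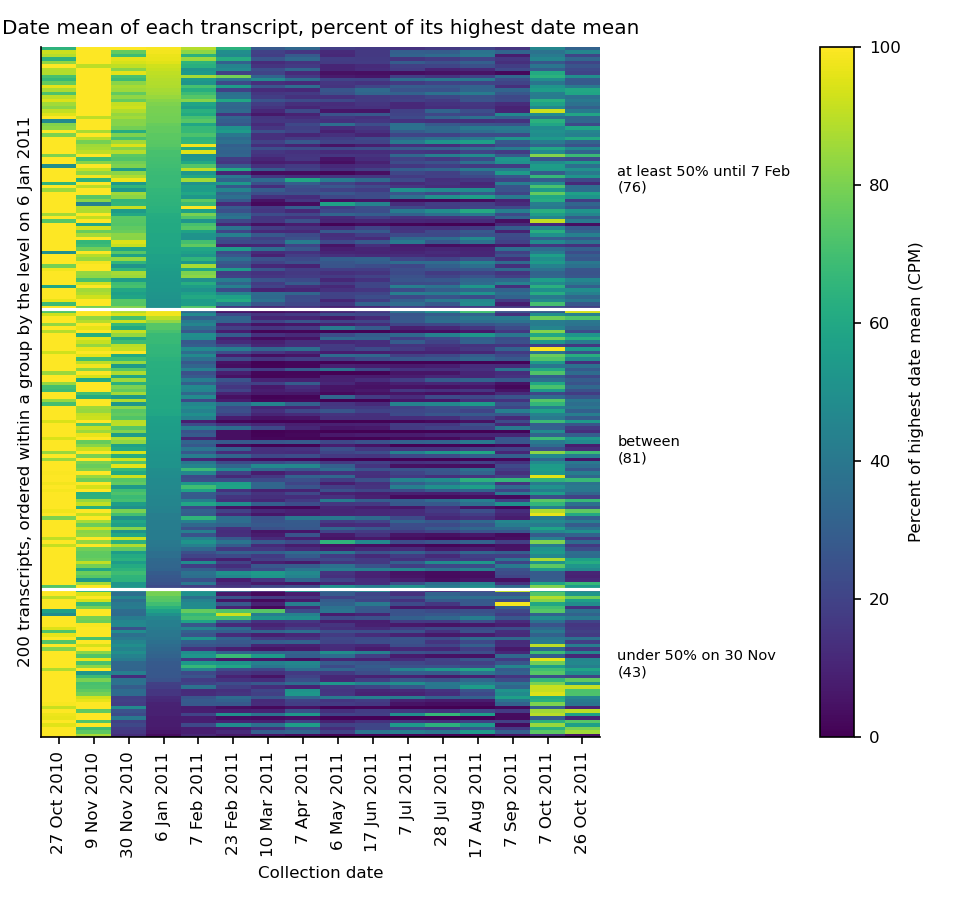
Each row is 1 of the 200 transcripts and each column a collection date; colour gives the date mean as a percent of the transcript's highest date mean, from CPM. The white lines separate the 76 transcripts that stayed at 50% or more on 30 Nov, 6 Jan and 7 Feb, the 81 between, and the 43 that were under 50% on 30 Nov; most rows are dark from 10 Mar to 7 Sep 2011 and lighten on 7 Oct 2011.

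The 200 left their peak at different times, although nearly all were low from March to September. Relative to the peak date, the median transcript stood at 68.8% on 30 Nov, 57.2% on 6 Jan, 48.4% on 7 Feb, 24.8% on 23 Feb and 15.3% on 10 Mar 2011. It then stayed between 15.8% and 24.2% until 7 Sep. These values are by library total and so include the larger share of the most abundant transcripts on 17 Jun. The first date under 50% of the peak was 30 Nov for 43 transcripts, 6 Jan for 35, 7 Feb for 46 and 23 Feb for 62. From 10 Mar to 17 Aug, 170 of the 200 stayed under 50% of the peak on every date and 66 under 25%. The date of the lowest level was spread out, with 47 lowest on 6 May, 41 on 10 Mar, 27 on 7 Sep and 26 on 28 Jul.

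Grouped by this course, 76 transcripts held at least 50% of the peak on 30 Nov, 6 Jan and 7 Feb, and their median was still 62.9% on 7 Feb. The 43 that were under 50% on 30 Nov had a median of 36.5% on that date and 28.4% on 6 Jan. These early leavers came back highest in the second autumn, at a median of 64.3% of the peak on 7 Oct 2011 against 48.4% for the 76 and 50.4% for the 81 between. Winter and October levels both entered the choice through the mean of the other dates. A low winter level there leaves room for a higher October level, so the rule itself can favour this order.

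The summed counts of the 200 gave the same picture for whole libraries. They made up 2.98% ± 0.488 of the library on 27 Oct 2010 (SD, n = 5), 1.98% to 2.43% on 30 Nov (n = 5), 1.59% ± 0.319 on 7 Feb (n = 5), 0.780% ± 0.0559 on 23 Feb (n = 4) and 0.516% ± 0.0269 on 17 Jun (n = 4). On 7 Oct 2011 the share was 1.48% ± 0.0947 (n = 3) and on 26 Oct 1.03% ± 0.417 (n = 3). The 3 libraries of 7 Oct 2011, from 1.42% to 1.59%, all lay above every library taken from 10 Mar to 7 Sep and below every library of autumn 2010. The rule favoured the latter, since each transcript had its highest date mean in autumn 2010.

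**Figure D2:**
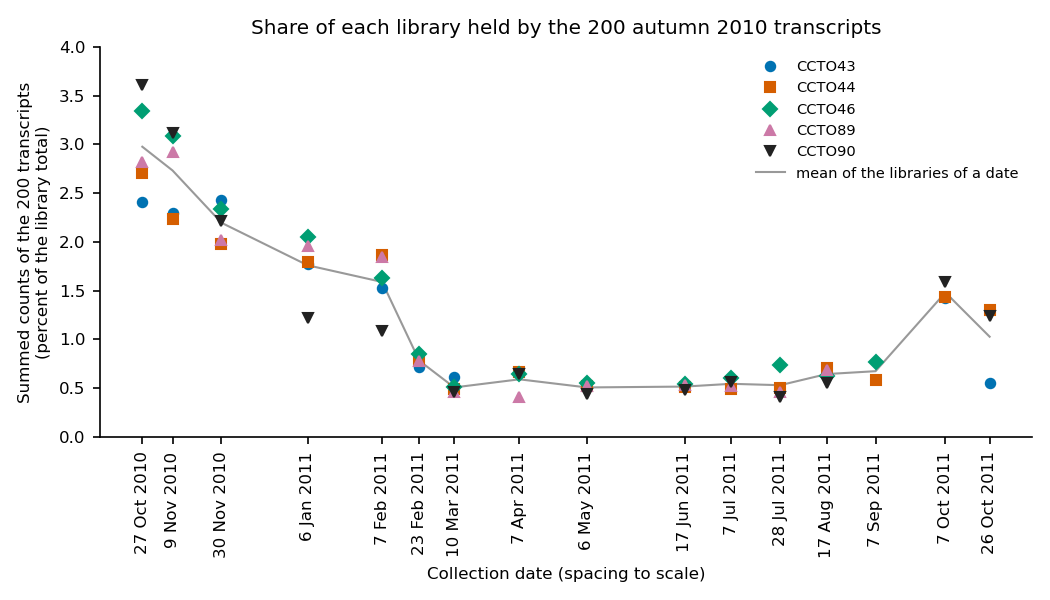
Summed counts of the 200 transcripts as a percent of each library total, by collection date and tree (points), with the mean of each date (line). Libraries of 27 Oct 2010 lie between 2.41% and 3.61%; CCTO90 is the lowest on 6 Jan and 7 Feb 2011, and CCTO43 stands far below the other trees on 26 Oct 2011.

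**Figure D3:**
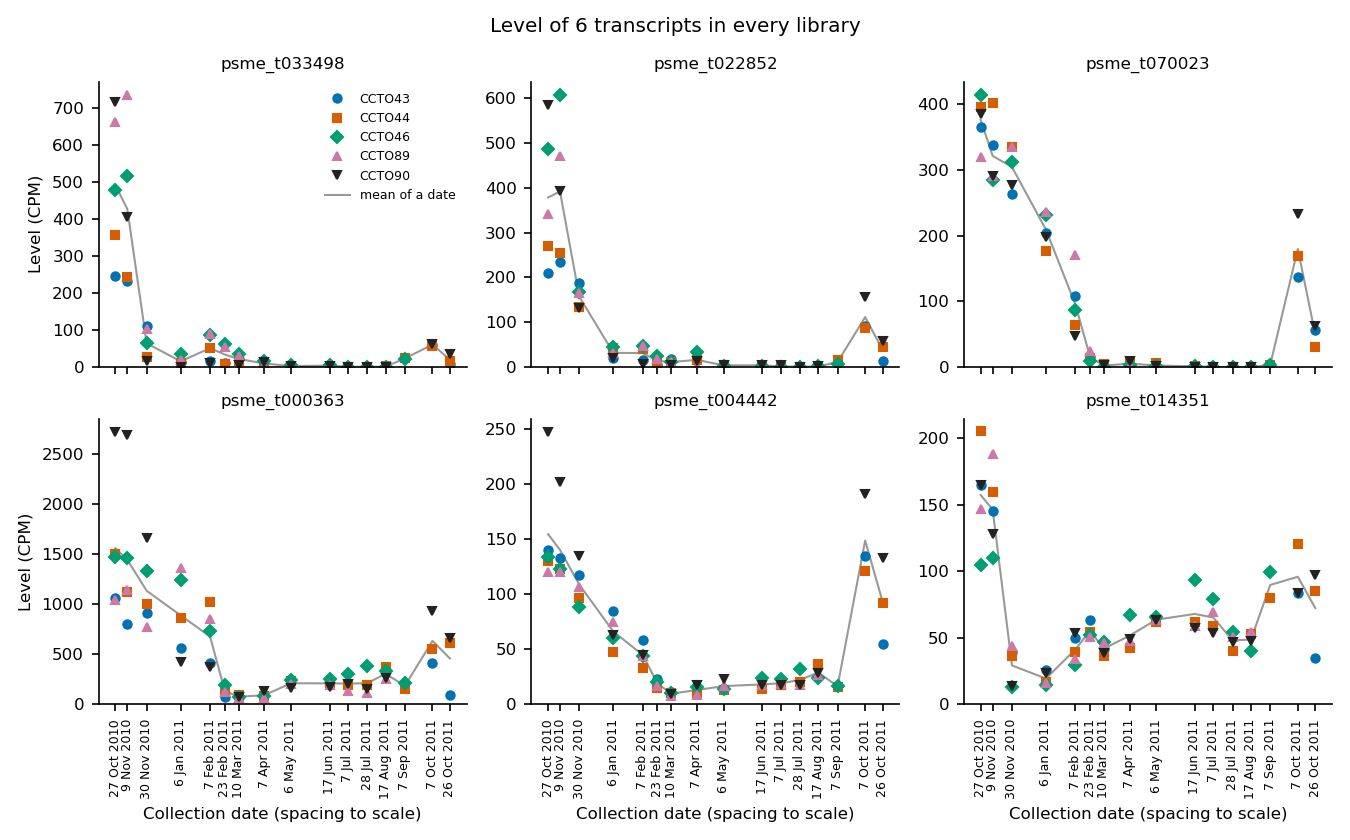
Level in CPM of 6 of the transcripts in every library, by collection date; points are trees and the grey line joins the date means. psme_t033498 and psme_t022852 are low by 6 Jan, psme_t070023 and psme_t000363 by 23 Feb, psme_t004442 returns on 7 Oct 2011, and psme_t014351 is lowest on 6 Jan.

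Whether the autumn peak also held in a tree that had no part in the choice was read by choosing 200 transcripts from 4 trees and looking at the fifth. In CCTO90, 83% of the transcripts chosen without it were highest on 27 Oct or 9 Nov 2010. The same share was 72.5% in CCTO46, 70.5% in CCTO89, 50% in CCTO44 and 49.5% in CCTO43. Among all transcripts of the same level and range the shares were 15.1%, 12.1%, 20.3%, 6.57% and 10.3% for these trees in that order. The median log2 ratio of autumn 2010 to the tree's other dates ran from 0.80 in CCTO43 to 1.58 in CCTO90, and between 195 and 200 of the 200 chosen transcripts had a ratio above 1. Among all transcripts of the same level and range, 52.6% to 59.7% had a ratio above 1, with median log2 ratios from 0.02 to 0.31. The ratio of the chosen transcripts was lowest in CCTO43, which lacks the dates from 7 Apr to 7 Sep. CCTO46 and CCTO89 have no library of October 2011, so those dates could not be the highest in them. In CCTO44, which has all 16 dates, 12 of the 200 of the main choice were highest on 7 Oct 2011 and 15 on 26 Oct 2011. The shares are thus not alike in their dates between trees.

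The levels of the other 14 dates entered the choice through their mean, through the lowest of them and because each had to lie under the peak, but the rule set no order among these dates. Their order was compared by test, with the tree as a block (quasi-likelihood F test of edgeR at a threshold of 0.05, with Benjamini-Hochberg adjustment over all 60931 transcripts tested). Libraries in these tests were scaled by TMM, a scaling that centres the changes of most transcripts. By library totals alone, the median change of all transcripts tested would be 0.60 in place of 0.10 on the log2 scale for 6 Jan against 17 Jun, and that of the 200 transcripts 1.77 in place of 1.27. For the other comparisons the shift was at most 0.25. These values by library totals add 1 mean offset per comparison to the TMM medians, and no fit by library totals was made. The gap between the 200 and all transcripts is therefore the same by construction.

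Between 30 Nov 2010 and 6 Jan 2011, 31 of the 200 fell and 0 rose, where 3.9% of all transcripts tested passed the test in either direction, 1.57% falling and 2.33% rising. Among the 4708 transcripts of the same level and range, 8.69% passed, and 221 of them fell. The median log2 difference of 30 Nov over 6 Jan was 0.41 for the 200 and -0.05 for all tested. The count of 31 depended on the fit: 10 fell with no replicate block for the tree, 17 were called without a filter on low counts, 14 fell without CCTO43 and 18 without CCTO44. Without CCTO90, 20 fell and 2 rose. The steepest pair led the fall. psme_t022852 stood on 30 Nov at 188 CPM in CCTO43, 134 in CCTO44, 167.5 in CCTO46, 165 in CCTO89 and 131 in CCTO90, and on 6 Jan at no more than 44.6 CPM in any tree. The dates did not overlap, and the log2 difference was 2.46 (SE 0.51, adjusted p = 0.00194 by edgeR, lower on 6 Jan in 5 of 5 trees). psme_t027360 differed by 2.45 (SE 0.51, adjusted p = 0.00218 by edgeR, 5 of 5 trees).

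The step between 7 and 23 Feb 2011 was picked because 53 transcripts had their steepest step down there, so what follows describes that step in the same libraries and is no independent evidence of it. The edgeR fit called 80 of the 200 lower and 1 higher on 23 Feb, where 11.1% of all transcripts tested were called, 5.15% lower and 5.97% higher. Among the 4708 of the same level and range, 33.3% were called, 863 lower and 705 higher. The median log2 difference of 7 Feb over 23 Feb was 0.68 for the 200 and -0.01 for all tested. Within single trees the medians by CPM were alike, 0.87 in CCTO43, 1.06 in CCTO44, 0.90 in CCTO46 and 0.76 in CCTO89. Without CCTO44, 41 transcripts were called lower and 0 higher.

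Large single steps stood behind this. psme_t026350 had 5.89 CPM in CCTO43, 68.5 in CCTO44, 83.6 in CCTO46 and 44.2 in CCTO89 on 7 Feb, and 0.286, 0.992, 13.8 and 0.952 CPM in the same trees on 23 Feb. The level was lower in each tree, although the ranges of the dates overlapped, and the fitted log2 difference was 4.15 (SE 0.97). The fit did not call it with no replicate block for the tree (adjusted p = 0.0746 by edgeR) or without CCTO44 (adjusted p = 0.0614 by edgeR). psme_t033835 had 55.2, 203, 387 and 490.2 CPM in these trees on 7 Feb and 2.76, 5.92, 68.6 and 16.6 CPM on 23 Feb (log2 difference 4.00, SE 0.84, lower in 4 of 4 trees). The abundant psme_t000363 was lower as well, with 676 ± 280 CPM (n = 5) and then 132.7 ± 50.6 (n = 4), a log2 difference of 2.23 (SE 0.31). The 1 transcript called higher on 23 Feb, psme_t031092, had 5.90 ± 2.70 CPM (n = 5) and then 14.6 ± 7.22 (n = 4), higher in 4 of 4 trees, and 5 of its alternative fits did not call it.

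In midwinter most of the 200 were still above midsummer. On 6 Jan 2011, 147 were higher and 16 lower than on 17 Jun, where 59.9% of all transcripts tested passed, 31.6% higher and 28.3% lower. This share of 81.5% called is no larger than the 84.5% among the 4708 transcripts of the same level and range, but those were more evenly split, with 2402 higher and 1577 lower. The median log2 difference was 1.27 for the 200 and 0.10 for all tested. By the course after the peak, the 76 that stayed high until 7 Feb gave 68 higher and 0 lower, and the 43 early leavers gave 14 higher and 14 lower; the 6 Jan level helped to form these groups, so the split between them is a description.

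The transcripts with the largest differences were psme_t073417 and psme_t070023. psme_t073417 stood on 6 Jan at 119.9 CPM in CCTO43, 91.3 in CCTO44, 123.8 in CCTO46, 135.6 in CCTO89 and 93.7 in CCTO90. On 17 Jun its 4 libraries lay between 0.218 and 1.04 CPM, 46 counts in all. Winter and summer did not overlap (log2 difference 7.13, SE 0.54, adjusted p = 4.15e-17 by edgeR, 4 of 4 trees). psme_t070023 differed by 6.90 (SE 0.57, adjusted p = 1.07e-14 by edgeR, 4 of 4 trees).

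Some autumn transcripts were lower in midwinter than in early summer. psme_t014351 stood on 27 Oct 2010 between 104.6 CPM in CCTO46 and 205 in CCTO44, on 6 Jan between 14.5 and 25.8 CPM, and on 17 Jun between 57.6 and 93.5 CPM. These 3 dates did not overlap, and 6 Jan lay below 17 Jun by a log2 change of -2.38 (SE 0.24, adjusted p = 1.99e-12 by edgeR, 4 of 4 trees). psme_t019899 had 26.2 ± 4.23 CPM on 27 Oct (n = 5), 1.58 ± 0.790 on 6 Jan (n = 5) and 10.0 ± 3.07 on 17 Jun (n = 4), a log2 change of -3.18 in January against June (SE 0.34, adjusted p = 2.67e-11 by edgeR, 4 of 4 trees). Of the 16 that were lower on 6 Jan than on 17 Jun, 14 were among the 43 early leavers.

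Needles of the same set were sampled again in October 2011. The rule kept only transcripts whose October 2011 date means lay under the 2010 peak, and a strong return lowered their rank. A full return was thus excluded beforehand, and the levels that follow describe only how far the chosen transcripts came back. At the higher of 7 and 26 Oct 2011, 108 of the 200 (54%) stood at 50% or more of the 2010 peak, 92 between 10% and 50%, and 0 under 10%. The median was 53.3% and the range 11.4% to 99.2%. These values set 3 trees of 2011 against 5 trees of 2010. On the same 3 trees in both years, 115 stood at 50% or more, with a median of 53.7% and a range of 13.8% to 103.5%. Leaving the CCTO43 library of 26 Oct out gave 61.5%. psme_t018266, psme_t004442 and psme_t038824 had the highest values, 99.2%, 96.2% and 96.0% of the 5-tree peak, which became 89.2%, 86.1% and 84.3% on the same 3 trees. psme_t033498 and psme_t024132 came back least, at 12.4% and 11.4%, or 13.8% and 15.2% on the same trees; psme_t024132 went from 723 ± 321 CPM on 27 Oct 2010 (n = 5) to 82.1 ± 51.2 on 7 Oct 2011 (n = 3), with no overlap between the years.

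Against the summer before, many of the 200 were higher. On 26 Oct 2011, 87 transcripts were higher and 1 lower than on 28 Jul, where 18.8% of all transcripts passed, 9.27% higher and 9.55% lower. Among the 4708 of the same level and range, 38.9% passed, 793 higher and 1039 lower. The median log2 difference was 0.81 for the 200 and -0.03 for all tested. On 7 Oct 2011 against 28 Jul, 124 were higher and 0 lower, where 24.9% of all passed, 12.2% higher and 12.8% lower, with medians of 1.21 and 0.01. Among the 4708, 52.5% passed, 1258 higher and 1216 lower. On 26 Oct against 17 Aug, 67 of the 200 were higher and 1 lower, where 18.4% of all passed, 8.86% higher and 9.59% lower. Among the 4708, 36.7% passed, 728 higher and 999 lower, so the 34% of the 200 did not exceed that share. Without the 17 Aug libraries of CCTO44 and CCTO46, which resembled each other's tree, 53 of the 200 were higher and 1 lower. The comparisons with 28 Jul rest on the same July libraries, and 2 trees, CCTO44 and CCTO90, have both seasons. Without CCTO44, 51 transcripts were higher and 1 lower on 26 Oct.

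psme_t004442 was higher on 7 Oct than on 28 Jul in both trees that have these dates. It stood on 7 Oct 2011 at 134.7 CPM in CCTO43, 120.6 in CCTO44 and 190.5 in CCTO90, and on 28 Jul at 20.2 CPM in CCTO44, 32.2 in CCTO46, 17.5 in CCTO89 and 17.9 in CCTO90. The dates did not overlap (log2 difference 2.39, SE 0.20, adjusted p = 9.81e-14 by edgeR, 2 of 2 trees). This transcript was named for its high level in October 2011 in the same libraries, so the p-value is no independent evidence of a return. psme_t073417 stood at 13.6 to 32.4 CPM on 26 Oct 2011, when its 4 libraries of 28 Jul held 4 counts in all (log2 difference 8.71, SE 0.75, adjusted p = 4.39e-13 by edgeR, 2 of 2 trees). With so few July counts that size depends on the model. The 1 transcript called lower on 26 Oct, psme_t000716, stood at 63.5 CPM in CCTO44 and 46.1 in CCTO90 on 28 Jul and at 55.6 and 49.6 CPM in these trees on 26 Oct. It was lower in 1 of these 2 trees, and CCTO43 had 11.0 CPM (log2 change -0.88, SE 0.19, adjusted p = 0.000656 by edgeR).

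By library totals, the date mean was higher on 7 Oct than on 26 Oct 2011 in 180 of the 200 transcripts. This pattern led to the comparison, whose counts therefore describe it and support nothing further. In the TMM fit 165 of the 200 were higher on 7 Oct, beside 2725 of the 4708 of the same level and range and 31237 of all 60931. By library totals the median change of all transcripts tested would be 0.26 on the log2 scale, against 0.02 by TMM. In CCTO44 alone, 102 of the 200 were higher on 7 Oct and 98 lower by CPM. The edgeR fit called 13 lower on 26 Oct and 0 higher, where 3.16% of all transcripts were called, 1.51% lower and 1.64% higher. Among the 4708 transcripts of the same level and range 8.60% were called, 245 lower and 160 higher, so the 6.5% of the 200 did not exceed that share. The trees differed. In CCTO43 the median transcript stood at 61.6% of the tree's own 2010 peak date on 7 Oct and 18.9% on 26 Oct, in CCTO44 at 54.3% and 54.5%, and in CCTO90 at 47.7% and 35.8%. CCTO43 on 26 Oct is the library with 48.3% of its counts in 20 transcripts, and the part this had in the lower date mean was not tested. Without that library 8 transcripts were called lower and 1 higher, 7 lower without CCTO43 altogether, 6 without CCTO44 and 7 with no replicate block for the tree. psme_t044705 went from 32.8 to 5.66 CPM in CCTO43, from 11.1 to 1.797 in CCTO44 and from 7.36 to 1.18 in CCTO90 (log2 difference 2.25, SE 0.45), and it was not called with no replicate block for the tree (adjusted p = 0.221 by edgeR). psme_t012832 went from 43.1 to 4.06 CPM, from 19.1 to 9.49 and from 40.4 to 11.6 in the same trees (log2 difference 1.79, SE 0.30).

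**Figure D4:**
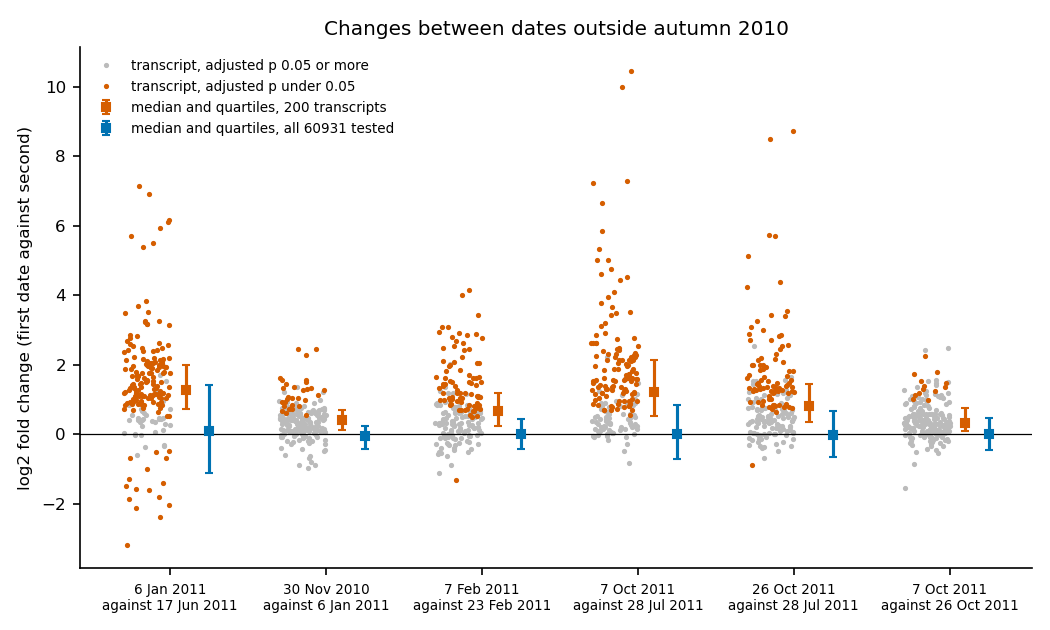
Log2 fold change of the first date over the second for 6 comparisons of dates outside autumn 2010, from the edgeR fit with the tree as a block. Points are the 200 transcripts, coloured where the adjusted p is under 0.05; squares with bars give the median and quartiles of the 200 and of all 60931 transcripts tested, and the median of the 200 is the higher in each comparison.

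Levels also differed between trees over the year. The test of the 4 tree coefficients called 167 of the 200, where 76.2% of all transcripts tested were called, so the 200 were close to that background. Without the libraries of 27 Oct and 9 Nov 2010, which the rule had used, 163 were called, where 71.1% of all transcripts were called in that fit. The log2 range between the highest and the lowest tree had a median of 0.83 and reached 3.41, and it was at least 1 in 73 transcripts (36.5%). Among the transcripts of the same level and range the median was 0.66, and 32.2% had a range of at least 1, which is near the share of the 200. psme_t023996 was highest in CCTO89 on each of the 13 dates of that tree, for example with 54.4 CPM on 27 Oct 2010 against 21.8 to 25.8 CPM in the other trees and 7.53 CPM on 17 Jun against 1.48 to 3.03 CPM (adjusted p = 2e-18 by edgeR). Without CCTO89 the other trees did not pass the test for it (adjusted p = 0.0575 by edgeR). psme_t016224 was highest in CCTO90 in autumn 2010, with 48.2 CPM on 27 Oct against 16.7 to 25.8 CPM (adjusted p = 3.48e-17 by edgeR), and psme_t013106 in CCTO43 and CCTO46, with 78.2 and 83.4 CPM that day against 13.6 to 23.5 CPM (adjusted p = 1.29e-14 by edgeR).

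On the peak date itself the highest tree exceeded the lowest by a median of 2.36-fold, from 1.18-fold to 12.1-fold, and by at least 2-fold in 141 transcripts. CCTO90 had the highest library in 82 transcripts, and CCTO43 or CCTO44 the lowest in 68 and 66. No such counts were made over other transcripts, so these describe the 200 only. The fit of a separate autumn 2010 term for each tree called 0 of the 200, where 0.292% of all transcripts were called (edgeR, Benjamini-Hochberg adjustment). An unadjusted p under 0.05 was reached by 40 of the 200 and by 5512 of the 60931. DESeq2 called 9 of the 200, where it called 0.691% of all transcripts. The rule used these libraries, since every library of the peak date had to exceed the yearly mean, so nothing on the likeness of trees can be read from this count.

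Among the 200, the trees stood at different levels in winter relative to their own autumn. Relative to each tree's own mean of 27 Oct and 9 Nov, the median of the 200 on 6 Jan 2011 was 68.3% in CCTO43, 72.3% in CCTO44, 62.4% in CCTO46 and 64.8% in CCTO89, but 39.7% in CCTO90. On 7 Feb it was 54.6%, 71.6%, 52.3%, 54.7% and 32.9% in the same order. CCTO90 was thus the tree with the highest summed share on 27 Oct (3.61%) and with the lowest on 6 Jan (1.22%, others 1.78% to 2.05%) and on 7 Feb (1.08%, others 1.52% to 1.87%). CCTO44, from the same seed locality, was the one that stayed highest relative to its own autumn level. Single transcripts also had CCTO90 highest on 27 Oct and lowest on 6 Jan: psme_t026350 stood in CCTO90 at 304 CPM on 27 Oct and 5.82 on 6 Jan, when the other trees had 49.1 to 198.9 CPM, and psme_t033835 at 766 and 15.9 CPM, when the others had 153 to 673 CPM. Each date has 1 library per tree, so these differences between trees have no replicate of their own. The rule also used the libraries of 27 Oct and 9 Nov, by which the percentages were divided. CCTO90 had the highest library of the peak date in 82 of the 200. The choice itself can therefore favour lower winter percentages in CCTO90. No such percentages were computed over other transcripts, so these values describe the 200 only.

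**Figure D5:**
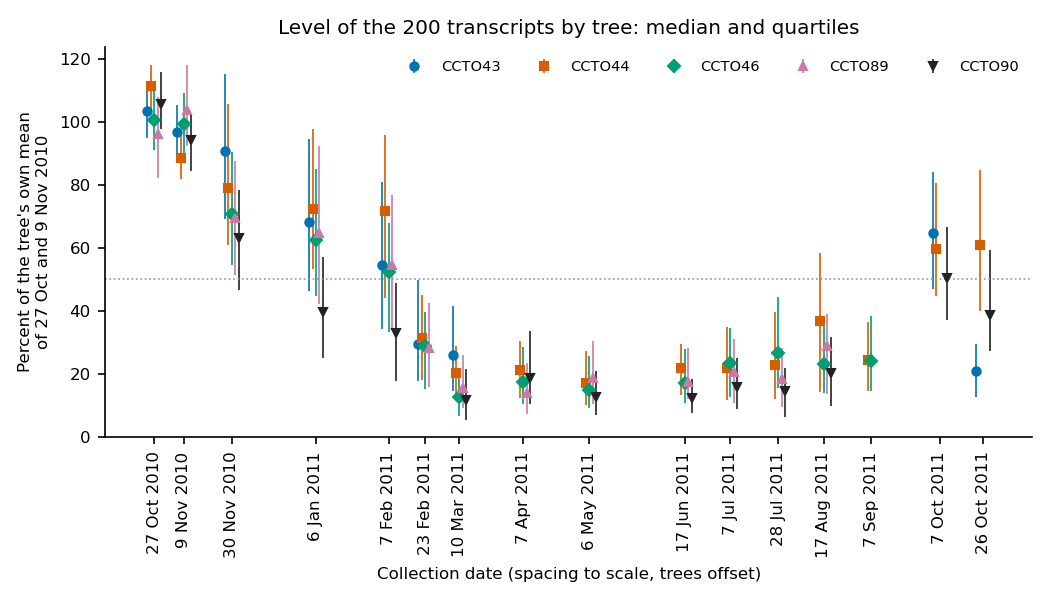
Level of the 200 transcripts in each tree and date as a percent of that tree's own mean of 27 Oct and 9 Nov 2010; points are medians over the 200 and bars the quartiles. On 6 Jan 2011 the median is 39.7% in CCTO90 and 62.4% to 72.3% in the other trees, and on 26 Oct 2011 it is 20.7% in CCTO43, 61.0% in CCTO44 and 38.7% in CCTO90.

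Beyond the shared dates, the 200 were only loosely tied to each other. Over all 66 libraries the median correlation of 2 transcripts was 0.63, a value that the choice of a common peak raises. After date means were removed it was 0.18. A correlation of at least 0.9 remained in 39 of 19900 pairs, which involve 53 transcripts. The closest, psme_t003793 and psme_t003380, correlated by 0.99 with a ratio that stayed between 0.622 and 1.08, and such pairs may be near-identical copies. psme_t026350, psme_t033835 and psme_t017684 were each tied to psme_t014954, with correlations of 0.92, 0.90 and 0.98. These correlations are across libraries that share trees and carry no test.

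The same rule applied to 30 Nov 2010 gave 200 transcripts out of 731 candidates, and their values can be set beside those of the 200 from autumn. On 6 Jan against 17 Jun, 199 of them were higher and 0 lower, with a median log2 difference of 3.24 against 1.27 for the autumn set. On 23 Feb against 7 Feb, 125 were called lower, against 80. On 26 Oct 2011 against 28 Jul, 85 were higher and 2 lower, against 87 and 1, and on 7 Oct 157 were higher, against 124. The differences between the sets were not tested.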

How the data were processed

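Poly(A) libraries from needles of 5 trees were sequenced, and CASAVA 1.8, Bowtie2 2.2.3 and DESeq are named per the submitters' processing notes. Reference, counting tool and strand setting were not given in the sources used here. The authors deposited raw counts, whole numbers for 199471 transcripts; 66 libraries were analysed, and the design text mentions 73. In them, 28846 transcripts have no count. A table of signal values deposited by the authors, the counts divided by 1 factor per library for 36145 transcripts, holds all 200 transcripts and served as an alternative; interpolated values were not used here.

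CPM were counts divided by library totals. The transcripts, comparisons and rules were chosen with earlier results of these data known, and the comparisons of 7 with 23 Feb and of 7 with 26 Oct 2011 after the levels had been seen. R 4.3.3 ran the tests with edgeR 4.0.16 (limma 3.58.1): filterByExpr by date with a minimum count of 10, which left 60931 transcripts with 99.7% of counts, TMM, quasi-likelihood F tests with date and tree, and Benjamini-Hochberg adjustment; all 66 libraries shared 1 estimate of the spread (dispersion 0.0687). Log2 ratios within a tree used a pseudocount of 0.1 CPM. The tree was a block, as trees were sampled repeatedly. With date means subtracted, 64 of 66 libraries were nearest to their own tree over 4708 transcripts; correlations had medians of 0.59 in a tree and -0.17 across trees. P-values take libraries of a date as independent trees. Scripts were tested on simulated data. DESeq2 1.42.0, RLE size factors, no filter, no block, other dates and each tree or single library left out were alternatives.

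Named in the text were the 8 transcripts with the largest ratio, the 4 with the highest peak, the last 2 inside and first 2 outside the limit, the 3 highest and 2 lowest in the second autumn, and per test the 2 largest changes in each direction among those called (3 smallest p for trees); psme_t003793, psme_t003380, psme_t017684 and psme_t014954 were named after their correlations were seen. Library totals limit precision: 3 counts stand for 0.302 CPM in the smallest library.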

Additional observations from a re-analysis of the deposited data

Results flagged for a closer look

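In 42 groups of 4 or 5 libraries, the highest or lowest library was compared with the rest by its distance to the nearest one, as a part of the whole range. With unselected, normally distributed values about 1 group in 20 would be marked. The rule used the libraries of the peak dates, and some transcripts were named for differences between trees. That rate therefore does not hold here, and the marked groups are a description. The summed share of the 200 transcripts on 10 Mar 2011 was 0.6177% in CCTO43 and 0.461% to 0.506% in the other trees. On 7 Apr 2011 it was 0.4114% in CCTO89 and 0.640% to 0.660% in the others. On 27 Oct 2010, CCTO90 lay far above the other trees in 4 transcripts: psme_t022271 (210.3 CPM, others 17.4 to 39.4), psme_t000363 (2719 CPM, others 1041 to 1504), psme_t018266 (108.8 CPM, others 40.4 to 58.5) and psme_t004442 (247.3 CPM, others 120.4 to 140.3). On the same day CCTO43 stood out in psme_t038824, with 265.1 CPM against 70.5 to 117.8. CCTO89 stood out in psme_t073417, where it was the lowest with 145.7 CPM against 179.2 to 190.6, and in psme_t023996, where it was the highest with 54.37 CPM against 21.8 to 25.8. Only named transcripts and the summed share were examined in this way.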

How the results depend on the processing

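Of the 200 transcripts, 135 to 182 were chosen again under other scalings, level limits, medians per date or without the smallest library, and 162 to 170 without a tree. The share that stood at 50% or more of the peak in the second autumn, 54%, was 95.5% at a limit of 25% of the peak, 16.5% at 75% 61.5% without the CCTO43 library of 26 Oct 2011 and 57.5% on the same 3 trees in both years. The pairing of libraries by tree mattered: with no replicate block (tree), the count of called transcripts was 143 in place of 163 for 6 Jan against 17 Jun, 58 in place of 88 for 26 Oct against 28 Jul 2011, 10 in place of 31 for 30 Nov against 6 Jan, 54 in place of 81 for 7 against 23 Feb and 7 in place of 13 for 7 against 26 Oct 2011. With each tree left out in turn these counts ran from 145 to 166, 52 to 99, 14 to 22, 41 to 92 and 6 to 16. Without a filter on low counts 17 were called for 30 Nov against 6 Jan. The test of tree-dependent autumn levels called 0, but 1 with RLE size factors, 1 without a filter and 9 with DESeq2. Of 161 alternatives for single named transcripts, 152 kept direction and call, 9 lost the call and 0 changed direction; where not stated otherwise the cause was not tested. Smaller changes could be missed, at 2 or 3 libraries a date in autumn 2011 and also on other dates. In counts simulated at a dispersion of 0.1, 8% to 32% of 2-fold and 82% to 99% of 4-fold changes between dates were recovered. For the tree-dependent autumn levels it was 3% and 68%. Levels near 0.302 CPM rest on single counts.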
